A study of Mus musculus with 5 samples.

Results

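Glutathione transferases are the enzymes that join glutathione, the main small thiol of the cell, to reactive molecules such as lipid aldehydes and foreign compounds. The 10 genes described here are Gstm1, Gstm2, Gstm5, Gstm7, Gsta4, Gstk1, Gsto1, Gstp1, Gstt1 and Gstz1. They were taken by symbol from a table of 12446 genes, and all 10 were listed. RNA was sequenced in bulk from cardiomyocytes isolated from the hearts of male C57BL/6 mice that were injected at 8 weeks of age and are given as 12 to 14 weeks old. OSKM-CMs (3 libraries, replicates 1, 2 and 3) came from mice that received 4 adeno-associated viruses at once: AAV-cTnT-Myc-V5 for the growth regulator Myc, AAV-cTnT-Klf4-HA for the zinc finger factor Klf4, and AAV-cTnT-Sox2-Flag with AAV-cTnT-Oct4-His6 for the pluripotency factors Sox2 and Oct4. Control-CMs (2 libraries, replicates 3 and 5) came from mice given AAV-cTnT-BFP, a vector for blue fluorescent protein. The labels give the dose per vector, in units of 1e10 vector genomes per gram of body weight, as 2.5 for each of the 4 OSKM vectors and 10 for the control vector. All of these vectors carry the cardiac troponin T promoter, which is active in cardiomyocytes, and the controls were therefore also virus-injected. Whether the libraries of a group are from different mice is not stated, and p-values here therefore cover only the spread among these libraries, which may be technical.

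Cytosolic transferases form classes named by Greek letters. Mu (Gstm), alpha (Gsta), pi (Gstp) and theta (Gstt) enzymes conjugate glutathione to electrophiles, Gsta4 with a preference for the lipid aldehyde 4-hydroxynonenal. The omega enzyme Gsto1 acts as a thioltransferase and dehydroascorbate reductase, the zeta enzyme Gstz1 isomerises maleylacetoacetate in tyrosine breakdown, and Gstk1 is the kappa enzyme of mitochondria and peroxisomes. Several of these genes are known in mouse tissues as targets of the stress-responsive transcription factor NRF2.

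The genes lie on 6 chromosomes. RefSeq (GRCm38.p6) places the mu genes side by side on chromosome 3 in the order Gstm5, Gstm7, Gstm6, Gstm3, Gstm2, Gstm1 and Gstm4. Gsta4 lies next to Gsta1 on chromosome 9, Gstp1 next to Gstp2 on chromosome 19, Gstt1 between Gstt3 and Gstt4 on chromosome 10, and Gsto1 next to Gsto2 on chromosome 19. Gstk1 is on chromosome 6 and Gstz1 on chromosome 12. RefSeq held promoter windows for 9 of the 10 genes, each running from 250 bases before to 50 bases after an annotated start (300 bases). The windows below are shown because Gsto1 was the member that rose, while neighbouring mu genes behaved differently from each other and Gstp1 fell by less. They are chr19:47854723-47855022 (plus strand) for Gsto1, chr3:107895604-107895903 (plus strand) for Gstm5, chr3:107931565-107931864 (minus strand) for Gstm7, chr3:107986371-107986670 (minus strand) for Gstm2 and chr19:4037863-4038162 (minus strand) for Gstp1. Capitals mark matches to any of 6 motifs, searched on both strands. For Gstm7 the table holds 2 windows that overlap, and the one with more matches is printed.
Gsto1: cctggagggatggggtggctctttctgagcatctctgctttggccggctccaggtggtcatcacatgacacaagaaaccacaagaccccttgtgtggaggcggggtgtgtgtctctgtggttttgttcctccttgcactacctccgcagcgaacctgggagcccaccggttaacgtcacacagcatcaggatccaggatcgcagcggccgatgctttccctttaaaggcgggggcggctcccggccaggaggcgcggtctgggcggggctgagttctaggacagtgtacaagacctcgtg
Gstm5: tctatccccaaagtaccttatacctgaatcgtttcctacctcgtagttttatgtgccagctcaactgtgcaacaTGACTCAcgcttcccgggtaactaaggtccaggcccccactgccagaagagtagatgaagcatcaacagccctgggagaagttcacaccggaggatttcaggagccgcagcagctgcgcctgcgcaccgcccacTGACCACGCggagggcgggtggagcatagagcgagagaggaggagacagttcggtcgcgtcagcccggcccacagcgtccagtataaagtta
Gstm7: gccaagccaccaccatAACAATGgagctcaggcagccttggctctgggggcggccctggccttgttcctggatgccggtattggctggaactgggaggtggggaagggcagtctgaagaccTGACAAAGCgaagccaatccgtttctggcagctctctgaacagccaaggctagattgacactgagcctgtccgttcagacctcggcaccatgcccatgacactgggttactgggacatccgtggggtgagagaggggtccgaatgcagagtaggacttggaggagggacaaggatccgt
Gstm2: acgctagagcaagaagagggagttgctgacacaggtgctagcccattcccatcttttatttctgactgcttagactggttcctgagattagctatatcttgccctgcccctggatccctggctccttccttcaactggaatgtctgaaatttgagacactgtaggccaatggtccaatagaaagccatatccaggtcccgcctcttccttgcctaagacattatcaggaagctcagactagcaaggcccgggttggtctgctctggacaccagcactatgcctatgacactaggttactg
Gstp1: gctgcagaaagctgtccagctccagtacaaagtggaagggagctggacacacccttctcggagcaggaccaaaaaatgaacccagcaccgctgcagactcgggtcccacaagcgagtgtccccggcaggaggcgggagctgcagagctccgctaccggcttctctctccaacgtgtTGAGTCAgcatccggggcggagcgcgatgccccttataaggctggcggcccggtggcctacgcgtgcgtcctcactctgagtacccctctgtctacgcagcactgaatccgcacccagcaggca

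The core of the antioxidant response element, TGACNNNGC, to which NRF2 binds, was in the windows of Gstm5 and Gstm7 and in 12.4% of all 32851 windows. The AP-1 site TGANTCA was in those of Gstm5 and Gstp1 and in 7.81% of all windows. Sites for the delivered factors were searched as the E-box CACGTG for Myc, the octamer ATGCAAAT for Oct4, AACAATG for Sox2 and GGGNGTGG for Klf4. No member window held the E-box (7.15% of all windows) or the octamer (1.74%). AACAATG was in Gstm7 (3.78% of all windows), and GGGNGTGG was in Gstm1 and Gstz1 (17.6%). The windows of Gsto1, Gstm2, Gstk1 and Gstt1 held none of the 6 motifs. In the Gstm5 window the antioxidant response element lay at -42 (TGACCACGC) and the AP-1 site at -176 relative to the start, so they did not overlap. The element of the printed Gstm7 window lay at -129 (TGACAAAGC) and the AP-1 site of Gstp1 at -74 (TGAGTCA). These matches describe letters only.

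Reads over the listed genes totalled 2691796 to 2780751 in the OSKM-CMs libraries and 3519628 and 3861805 in the Control-CMs libraries. Reads of Pou5f1, which encodes Oct4, numbered 344, 262 and 266 in OSKM-CMs and 0 in both controls. Genes encoded by mitochondrial DNA took 9.76% to 11.1% of reads in OSKM-CMs, against 21.2% and 24.7% in Control-CMs. Levels are therefore given as RPKM (reads scaled to gene length and library total) scaled by the trimmed mean of M values (TMM), a factor per library that sets the bulk of genes level. With TMM the median log2 fold change of all 10915 tested genes was 0.02, and with library totals alone it was 0.36. Of the tested genes, 1740 were higher and 1558 lower in OSKM-CMs (limma on log2 of scaled RPKM plus 1, Benjamini-Hochberg adjusted p below 0.05), against 3985 higher and 650 lower with library totals alone. Summed levels of 13 cardiomyocyte markers were 25238 to 28285 scaled RPKM in OSKM-CMs and 44826 to 48906 in Control-CMs. Of these 13, 11 were called lower and 1 higher. Those of the 12 listed of 13 fibroblast markers were 176 to 346 in OSKM-CMs and 90.8 and 187 in Control-CMs, with 5 of 11 tested called higher (Tcf21 was not listed). Those of 13 endothelial markers were 112 to 238 in OSKM-CMs and 342 and 365 in Control-CMs, with 3 of 13 called lower. The 11 mural cell markers summed to 276 to 410 in OSKM-CMs and 235 and 239.8 in Control-CMs, with 3 called higher and 1 lower. Of the macrophage markers 8 of 14 were listed, with 0 of 7 tested called in either direction, and sums of up to 46.3 in OSKM-CMs and up to 59.0 in Control-CMs. Of the Schwann cell markers 2 of 5 were listed (8.85 to 11.5 in OSKM-CMs, 0.293 and 0.870 in Control-CMs), and the 1 tested was called higher (log2 fold change 3.39). Of the erythroid markers 1 of 8 was listed and was called lower (-1.76), and of the lymphocyte markers 0 of 8 were listed. The part of these shifts in the transferase results was not tested. In bulk RNA, fewer cells of a type cannot be told apart from less RNA per cell.

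In OSKM-CMs, Gsto1 rose 4.15-fold and most of the other members described here fell. All 10 genes passed the filter on low values (a mean RPKM of at least 1). Of the 10, 1 rose, 7 fell and 2 did not pass the test, where 15.9% of all tested genes were called higher and 14.3% lower. Together 8 of 10 were called, against 30.2% of all tested genes. The members were chosen with earlier results of these data known, so these shares only describe the list. The median log2 fold change of the 10 was -0.83, against 0.02 for all tested genes. Levels of the 2 groups did not overlap for 9 of the 10 genes, against 57.9% of all tested genes. With library totals alone 2 members were called higher, against 36.5% of all tested genes, and 5 lower, against 5.96%. The authors' deposited table gave an FDR below 0.05 for 8 of the 10, the same 8 that were called here and in the same directions. Their comparison is of the same data, so it is not independent of these calls.

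**Figure D1:**
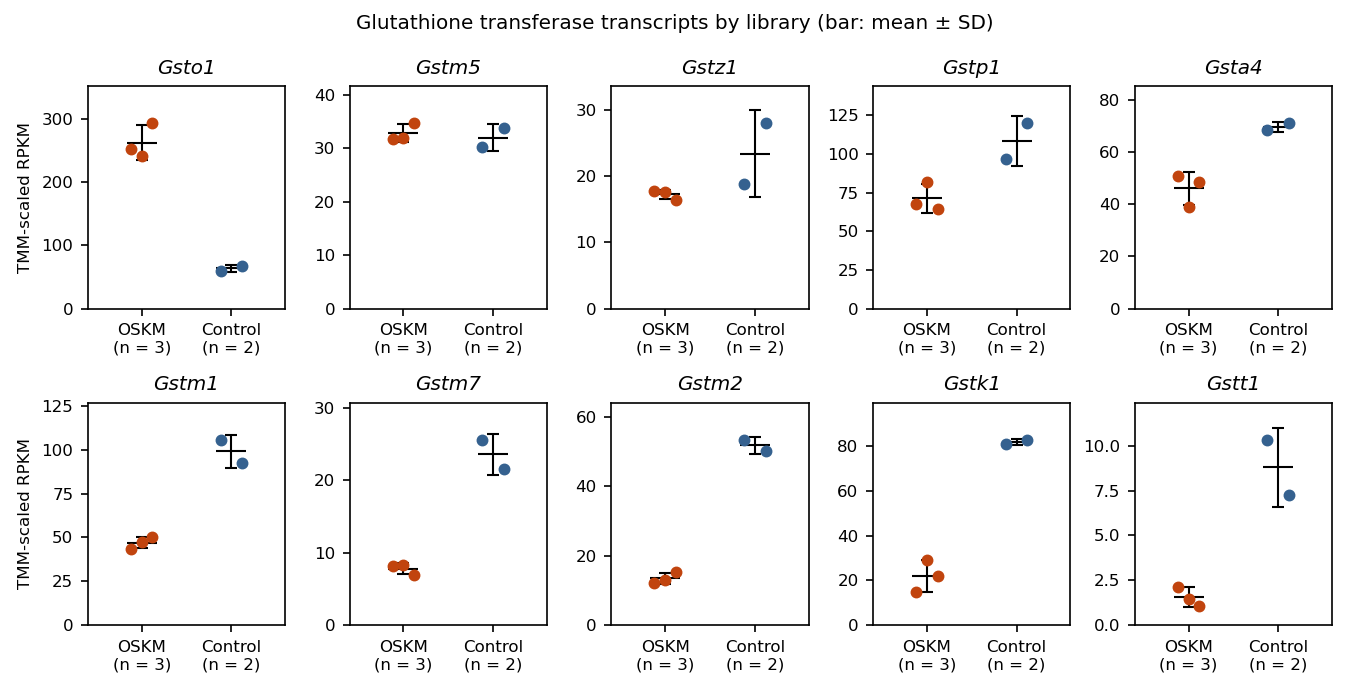
TMM-scaled RPKM (vertical axes, linear and starting at 0) of the 10 genes in 3 OSKM-CMs and 2 Control-CMs libraries, ordered by fold change. Points are libraries and bars the mean ± SD. The OSKM-CMs points of Gsto1 lie at 242 to 294, all above the controls at 59.8 and 67.0, those of Gstm5 overlap the controls, and those of the other 8 genes lie below their controls.

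Gsto1 (ENSMUSG00000025068.7) stood at 253, 242 and 294 scaled RPKM in OSKM-CMs replicates 1, 2 and 3, against 59.8 and 67.0 in Control-CMs replicates 3 and 5. These levels rested on 1528, 1482 and 1767 reads in OSKM-CMs and 365 and 405 in Control-CMs. Every OSKM-CMs library was above both controls, and the lowest OSKM-CMs level was far above the highest control level. Its means were 263 ± 27.2 (SD, n = 3) in OSKM-CMs and 63.4 ± 5.08 (SD, n = 2) in Control-CMs, with a log2 fold change of 2.03 (SE 0.13, 95% interval 1.74 to 2.33, limma Benjamini-Hochberg adjusted p = 7.90e-05). By the size of its change it ranked 206 among the 10915 tested genes. No stretch of 50 bases in its annotated transcripts was shared with another gene. On the scale with 1 added, the genes with the most similar profile over the 5 libraries (smallest distance between centred log2 levels) were Unc13b, a regulator of vesicle release, at 0.098, the hepatocyte growth factor receptor gene Met at 0.13 and the Wnt inhibitor gene Dkk2 at 0.15. Unc13b had levels of 7.86 to 9.30 scaled RPKM in OSKM-CMs, against 1.07 and 1.28 in Control-CMs, while Dkk2 had 2.82 to 3.45 in OSKM-CMs and 0 reads in both controls. This likeness depends on the 1 added before logs, since all 3 have low levels in Control-CMs: with 0.1 added the log2 fold changes were 2.74 for Unc13b, 3.52 for Met and 4.98 for Dkk2 (whose value depends on the number added), against 2.05 for Gsto1.

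The mu-class genes of the chromosome 3 cluster were split. Gstm2 (ENSMUSG00000040562.6) had 12.2, 12.8 and 15.2 scaled RPKM in the 3 OSKM-CMs libraries, against 53.5 and 50.1 in the 2 Control-CMs libraries. Both controls lay more than 30 units above the highest OSKM-CMs library. It fell by 1.87 on the log2 scale (SE 0.13, limma adjusted p = 0.000151), from reads of 63 to 78 in OSKM-CMs and 258 and 278 in Control-CMs. Gstm7 (ENSMUSG00000004035.6) had 8.16, 8.25 and 6.96 scaled RPKM in OSKM-CMs and 25.6 and 21.6 in Control-CMs. The groups were clear of each other here too, and the log2 change was -1.48 (SE 0.14, limma adjusted p = 0.000485). Gstm1 (ENSMUSG00000058135.6), the mu gene with the most RNA in these cells, had 43.6, 47.4 and 50.1 scaled RPKM in OSKM-CMs and 105.8 and 92.5 in Control-CMs. Its control mean was 2.11 times its OSKM-CMs mean (log2 fold change -1.06, SE 0.12, limma adjusted p = 0.000966).

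Gstm5 (ENSMUSG00000004032.4), at one end of the cluster and transcribed from the opposite strand to its neighbours, did not pass. Its levels of 31.7, 31.8 and 34.7 scaled RPKM in OSKM-CMs overlapped those of 30.1 and 33.7 in Control-CMs. The log2 fold change was 0.04 (95% interval -0.24 to 0.31, limma adjusted p = 0.845) and became 0.44 with library totals alone (limma adjusted p = 0.0215). Gstm5 turned to -0.0051 without OSKM-CMs replicate 3 and to -0.043 without Control-CMs replicate 3.

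Ratios of members within a library do not depend on the scaling. Gstm2 stood at 0.386, 0.404 and 0.439 times Gstm5 in the OSKM-CMs libraries and at 1.77 and 1.48 times in the Control-CMs libraries, in RPKM. Gstm1 was at 1.37 to 1.49 times Gstm5 in OSKM-CMs, against 3.51 and 2.74 times in Control-CMs. For Gstm7 the ratio to Gstm5 was 0.201 to 0.259 in OSKM-CMs and 0.851 and 0.640 in Control-CMs. The log2 ratios differed between the groups by -1.99 for Gstm2, -1.11 for Gstm1 and -1.64 for Gstm7, with no overlap of libraries. An exact permutation test of any of these (2-sided, as the smaller one-sided p doubled) gave p = 0.2, the smallest that this form of the test allows with 3 against 2 libraries. Gstm2 and Gstm1 also parted from each other, at a ratio of 0.271 to 0.304 in OSKM-CMs and 0.505 and 0.541 in Control-CMs. Of the 50-base stretches in Gstm1 transcripts, 18.9% also lie in other genes, among them Gstm3 and the pseudogene Gstm2-ps1, against 5.65% for Gstm2 and 0.532% for Gstm7. For Gstm5 the share is 9.44%, all with 4933431E20Rik on the opposite strand. Reads in those shared stretches cannot be assigned to either gene, since the strand setting is not given in the sources used here.

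Gstk1 and Gstt1 also fell. Gstk1 (ENSMUSG00000029864.5), the mitochondrial and peroxisomal enzyme, had 14.8, 29.2 and 21.9 scaled RPKM in OSKM-CMs replicates 1, 2 and 3, against 81.2 and 83.1 in Control-CMs. The controls were close together, and the OSKM-CMs libraries ranged widely but all lay far below them. It fell by 1.91 on the log2 scale (SE 0.25, limma adjusted p = 0.00245). Gstt1 (ENSMUSG00000001663.4), the theta enzyme, was the member with the lowest level. It had 2.13, 1.47 and 1.07 scaled RPKM from 10, 7 and 5 reads in OSKM-CMs, against 10.3 and 7.25 from 49 and 34 reads in Control-CMs. The ratio of mean levels, Control-CMs over OSKM-CMs, was 5.64, and the log2 fold change on the scale with 1 added was -1.94 (SE 0.23, limma adjusted p = 0.00112). At these low levels the size depended on the number added, with -2.45 for 0.1 and -1.07 for 5 added before logs, and the call held with both.

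Gsta4, Gstp1 and Gstz1 changed least after Gstm5. Gsta4 (ENSMUSG00000032348.5) had 51.0, 38.8 and 48.4 scaled RPKM in OSKM-CMs and 68.4 and 71.1 in Control-CMs, and fell by 0.60 on the log2 scale (SE 0.14, limma adjusted p = 0.0175). Gstp1 (ENSMUSG00000060803.3) had 67.5, 82.1 and 64.7 scaled RPKM in OSKM-CMs and 97.0 and 120.1 in Control-CMs, and also fell by 0.60 (SE 0.15, limma adjusted p = 0.0216). Both genes lay lower in every OSKM-CMs library than in either control, but both calls rested on the scaling. With library totals alone each had a log2 fold change of -0.18, with limma adjusted p = 0.335 for Gsta4 and 0.317 for Gstp1. The Gsta4 call was lost when Control-CMs replicate 3 (-0.62, adjusted p = 0.0629) or replicate 5 (-0.57, adjusted p = 0.0831) was left out. That of Gstp1 was lost on leaving out OSKM-CMs replicate 1 (-0.56, adjusted p = 0.0739), OSKM-CMs replicate 3 (-0.53, adjusted p = 0.0742) or Control-CMs replicate 5 (-0.44, adjusted p = 0.131). Of the 50-base stretches in Gstp1 transcripts, 33.7% are shared with Gstp2 or the pseudogene Gstp-ps, so its reads may be split with them. Gstz1 (ENSMUSG00000021033.9) had 17.8, 17.5 and 16.4 scaled RPKM in OSKM-CMs, against 18.7 and 28.0 in Control-CMs. The controls stood far apart, and the log2 fold change of -0.39 did not pass (95% interval -0.80 to 0.01, limma adjusted p = 0.129). Without Control-CMs replicate 3 it was -0.67 and passed (adjusted p = 0.0266), and with library totals alone it was 0.01. Exons of Gstz1 overlap Pomt2 and Gm6566 on the opposite strand.

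**Figure D2:**
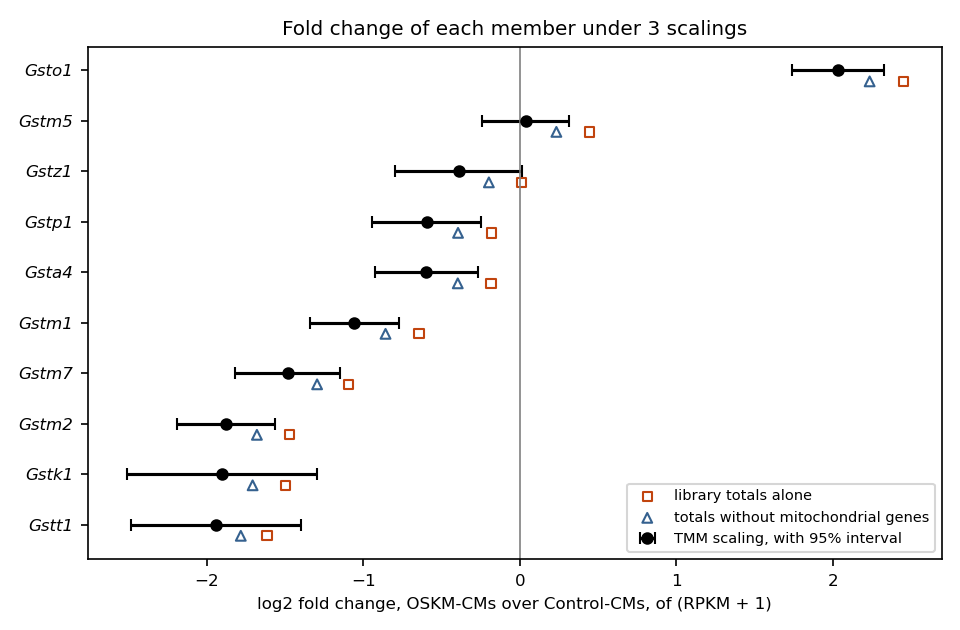
Log2 fold change of OSKM-CMs over Control-CMs for each gene (horizontal axis, on RPKM plus 1), with filled points and 95% intervals for TMM scaling and open symbols for library totals alone or without mitochondrial genes. The symbols of every gene shift to the right when totals replace TMM. Gsto1 stays above 2 and Gstm2, Gstk1 and Gstt1 stay below -1.4, while Gstp1 and Gsta4 move from -0.60 to -0.18.

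The make-up of the family changed more than its summed level. The 10 genes together had 502, 511 and 553 scaled RPKM in OSKM-CMs, against 550 and 574 in Control-CMs. The lowest control and the highest OSKM-CMs library overlapped. Gsto1 supplied 50.4%, 47.3% and 53.1% of that sum in OSKM-CMs, against 10.9% and 11.7% in Control-CMs. The other 9 genes summed to 249, 269 and 260 scaled RPKM in OSKM-CMs and to 491 and 507 in Control-CMs. In RPKM without TMM these 9 summed to 276 to 302 in OSKM-CMs and to 434 and 405 in Control-CMs, and all 10 to 557 to 630 in OSKM-CMs and 486 and 458 in Control-CMs. The direction of the whole sum therefore depended on the scaling, and that of the sum without Gsto1 did not. Leaving out the only member called higher with TMM favours a lower sum, so the sum without Gsto1 only describes these 9 genes.

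The order of the levels per length also differed. In OSKM-CMs it ran from Gsto1 through Gstp1, Gstm1, Gsta4, Gstm5, Gstk1, Gstz1, Gstm2 and Gstm7 to Gstt1. The libraries of Gstm1 and Gsta4 overlapped, and those of Gstk1 overlapped both Gstz1 and Gstm2. In OSKM-CMs replicate 1 Gstk1, at 14.8 scaled RPKM, lay below Gstz1, at 17.8. In Control-CMs the order was Gstp1, Gstm1, Gstk1, Gsta4, Gsto1, Gstm2, Gstm5, Gstm7, Gstz1 and Gstt1, with overlap between Gstp1 and Gstm1 and between Gstm7 and Gstz1. By mean level, Gsto1 thus ranked first in OSKM-CMs, against the fifth place in Control-CMs. Gstk1 took the sixth place by mean level in OSKM-CMs, against the third in Control-CMs.

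**Figure D3:**
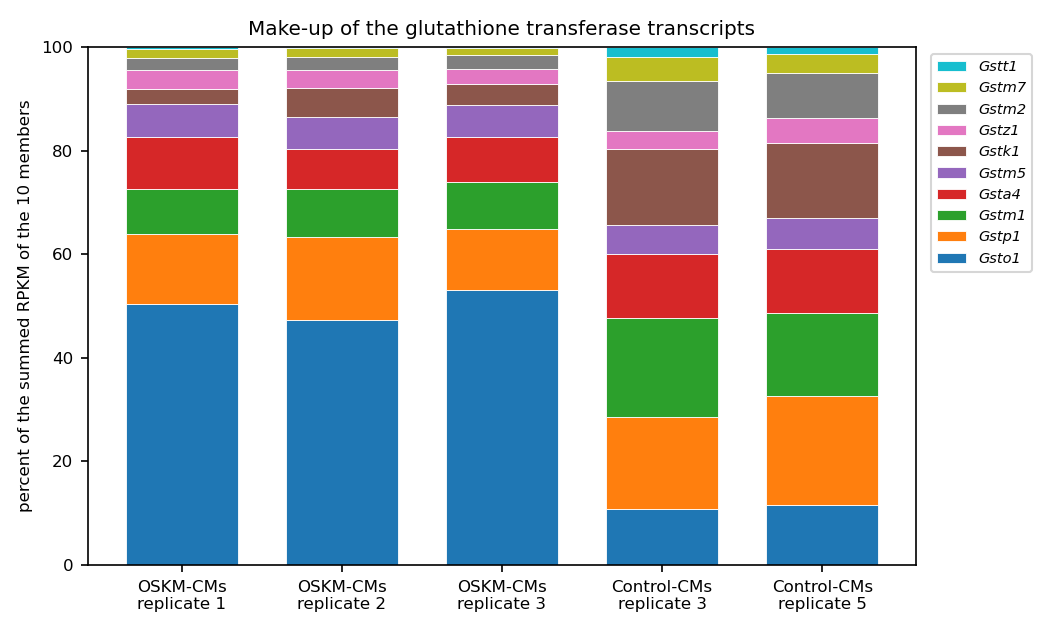
Share of the summed RPKM of the 10 genes (percent, vertical axis from 0 to 100) taken by each gene in each library, OSKM-CMs at the left and Control-CMs at the right. Gsto1 takes 47.3% to 53.1% in OSKM-CMs and 10.9% and 11.7% in Control-CMs, and Gstk1 takes 2.95% to 5.71% in OSKM-CMs and 14.8% and 14.5% in Control-CMs.

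Among 19 further transferases, 7 were listed and 6 tested. Of these 6, 1 fell, 0 rose and 5 did not pass (median log2 fold change -0.26). Over all tested genes, 14.3% were called lower and 15.9% higher, so the share that fell was near that of all genes. Under library totals alone, where 36.5% of all tested genes were higher and 5.96% lower, 0 of these 6 were called in either direction. Mgst3, a microsomal transferase and peroxidase, had the highest level of these, at 189, 211 and 185 scaled RPKM in OSKM-CMs, against 252 and 259 in Control-CMs. It fell by 0.39 on the log2 scale (limma adjusted p = 0.0311), but stood at 0.03 with library totals alone (adjusted p = 0.861). The call of Mgst3 was also lost without OSKM-CMs replicate 1 (adjusted p = 0.1), OSKM-CMs replicate 3 (0.105), Control-CMs replicate 3 (0.0873) or Control-CMs replicate 5 (0.117). Mgst1, its microsomal relative, had 37.4, 18.1 and 32.4 scaled RPKM in OSKM-CMs and 26.1 and 20.5 in Control-CMs, groups that overlapped (log2 fold change 0.26, limma adjusted p = 0.554). Its value moved with single libraries: without OSKM-CMs replicate 2 it was 0.57 and passed (adjusted p = 0.0405), while without OSKM-CMs replicate 1 it was 0.061 (0.902) and without Control-CMs replicate 5 it was 0.097 (0.886).

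Gsta1 had 15, 11 and 31 reads in OSKM-CMs and 8 and 0 in Control-CMs, and did not pass (log2 fold change 1.85, limma adjusted p = 0.0925), though it did without Control-CMs replicate 3 (2.80, adjusted p = 0.0157). When Control-CMs replicate 5 was left out instead, it was 0.91 (adjusted p = 0.254). The authors' deposited table gave Gsta1 a log2 fold change of 2.28 and an FDR of 0.00247. In its transcripts 90.5% of 50-base stretches are shared with Gsta2, Gm3776 or Gm10639, so the source of these reads is uncertain. Gstp2 had levels of 3.50 to 4.32 scaled RPKM in OSKM-CMs and 3.90 and 10.9 in Control-CMs (log2 fold change -0.68, limma adjusted p = 0.196), and its value rested on the controls: it passed without Control-CMs replicate 3 (-1.32, adjusted p = 0.00703) and was -0.04 without Control-CMs replicate 5 (adjusted p = 0.912). Gstt2, with 1.17 to 2.15 scaled RPKM in OSKM-CMs and 4.95 and 2.14 in Control-CMs, did not pass (-0.64, limma adjusted p = 0.162) except without Control-CMs replicate 5 (-1.10, adjusted p = 0.0392), and was -0.17 without Control-CMs replicate 3 (adjusted p = 0.702). Gstm4, next to Gstm1 in the cluster, had 1.92 to 4.15 scaled RPKM in OSKM-CMs and 2.08 and 4.39 in Control-CMs (-0.12, limma adjusted p = 0.803). Gstcd was listed with 27 reads in OSKM-CMs and 10 in Control-CMs and lay below the minimum level.

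Genes that make or supply glutathione were more often higher than lower. Of 9 tested, 5 rose, 1 fell and 3 did not pass, against 15.9% higher and 14.3% lower over all tested genes. The median log2 fold change of the list was 0.53 (0.87 with library totals alone, against 0.36 for all genes). Gclm, the modifier subunit of the rate-limiting enzyme of glutathione synthesis, rose to 5.71 ± 0.857 scaled RPKM in OSKM-CMs (SD, n = 3), against 3.15 ± 0.0679 in Control-CMs (SD, n = 2; limma adjusted p = 0.0196). Gss, glutathione synthetase, rose to 4.31 ± 0.947 scaled RPKM in OSKM-CMs (SD, n = 3), against 2.29 ± 0.695 in Control-CMs (SD, n = 2; limma adjusted p = 0.0468). Mtr, methionine synthase, fell to 11.2, 12.7 and 10.8 scaled RPKM in OSKM-CMs, against 26.0 and 21.3 in Control-CMs (limma adjusted p = 0.0026). Only 2 of these genes were called without OSKM-CMs replicate 1, and likewise without Control-CMs replicate 3 or replicate 5. Gclm missed the threshold when any library other than OSKM-CMs replicate 2 was left out (adjusted p from 0.0618 to 0.0762), and Gss without OSKM-CMs replicate 1 (0.105), OSKM-CMs replicate 3 (0.135) or Control-CMs replicate 3 (0.212).

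Downstream of conjugation, 2 of 8 tested genes of glutathione breakdown rose and 2 fell, against 15.9% and 14.3% of all tested genes. Cndp2, a peptidase of cysteinylglycine, rose by 1.07 on the log2 scale (limma adjusted p = 0.0218), and Lap3, a leucine aminopeptidase, by 0.57 (adjusted p = 0.0165). Ggct fell by 0.83 (limma adjusted p = 0.019) and Oplah, which opens 5-oxoproline, by 0.60 (adjusted p = 0.0178). Neither passed with library totals alone (Ggct -0.54, adjusted p = 0.078, and Oplah -0.22, adjusted p = 0.296), which left 2 higher and 0 lower in the list. The number called in this list was 1 without OSKM-CMs replicate 1, 0 without OSKM-CMs replicate 3 and 2 without either control. Of 5 tested transporters of conjugates or related anions, 2 rose and 0 fell: Abcg2 had 6.58 to 7.88 scaled RPKM in OSKM-CMs and 4.27 and 3.46 in Control-CMs (limma adjusted p = 0.0111), and Abcc1, which exports glutathione conjugates, 5.79 to 7.07 in OSKM-CMs and 4.48 and 3.55 in Control-CMs (adjusted p = 0.0319). The Abcc1 call was lost when any library other than Control-CMs replicate 3 was left out (adjusted p from 0.0584 to 0.148), and that of Abcg2 without Control-CMs replicate 5 (0.0598). Without OSKM-CMs replicate 1 or 3 the transporter list had 1 call, and without Control-CMs replicate 5 it had 0.

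The list of glutathione peroxidases, glutathione reductase and glutaredoxins had 2 of 11 higher, 0 lower and 9 that did not pass. Its median log2 fold change was -0.05, and its share called higher was near the 15.9% of all tested genes. Gpx1, the cytosolic glutathione peroxidase, had 113, 103 and 110 scaled RPKM in OSKM-CMs, against 54.0 and 49.9 in Control-CMs. It rose 2.09-fold (log2 fold change 1.05, limma adjusted p = 0.000657), with libraries of each group close together. Gpx8, an endoplasmic reticulum peroxidase, had 28.2 to 38.3 scaled RPKM in OSKM-CMs and 14.3 and 17.6 in Control-CMs (limma adjusted p = 0.00347). In the thioredoxin and peroxiredoxin list 1 of 18 rose, 4 fell and 13 did not pass. Over all tested genes 15.9% were called higher and 14.3% lower. Library totals alone gave 8 higher and 3 lower in this list, against 36.5% of all tested genes higher and 5.96% lower. Prdx5, a peroxiredoxin of mitochondria and peroxisomes, fell to 65.5 ± 10.8 scaled RPKM in OSKM-CMs, against 149.5 ± 15.1 in Control-CMs (SD, n = 3 and 2; limma adjusted p = 0.00161). Txnip, a thioredoxin inhibitor, had 70.8 to 81.3 scaled RPKM in OSKM-CMs and 138 and 287 in Control-CMs (limma adjusted p = 0.0152), a call lost without OSKM-CMs replicate 2 (0.0673) or replicate 3 (0.0544). Txnrd3 rose by 0.54 on the log2 scale (limma adjusted p = 0.0391) and missed the threshold when any library other than Control-CMs replicate 3 was left out (0.069 to 0.193). The thioredoxin list had 3 calls without OSKM-CMs replicate 1, 2 without OSKM-CMs replicate 3 and 3 without Control-CMs replicate 5.

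In the list for NADPH supply, which keeps glutathione reduced, 6 of 15 tested genes rose, 3 fell and 6 did not pass. Their median log2 fold change was -0.02. Over all tested genes 15.9% were called higher and 14.3% lower. The cofactor used by each enzyme was not a condition of the list, and NADPH was not measured. With library totals alone 8 of the list were higher and 0 lower (median 0.40, against 0.36 for all genes). Mthfd2, a mitochondrial folate enzyme, was 7.99-fold higher in OSKM-CMs, at 4.07 to 7.33 scaled RPKM, against 0.948 and 0.359 in Control-CMs (limma adjusted p = 0.00245). Me2, a mitochondrial malic enzyme, was 2.86-fold higher (limma adjusted p = 0.000973). The malic enzyme genes Me3 and Me1 fell by 0.82 and 0.54 (limma adjusted p = 0.00616 and 0.018), and neither passed with library totals alone. Me1 also missed it without Control-CMs replicate 3 (0.0525) or replicate 5 (0.0915).

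The list of NRF2 with its regulators and textbook targets shares Gclc, Gclm, Gsr, Abcc1 and others with the lists above. It had 9 of 27 higher, 3 lower and 15 that did not pass, against 15.9% higher and 14.3% lower over all tested genes. Its median log2 fold change was 0.47, against 0.02 for all tested genes. With library totals alone the median of the list was 0.75, against 0.36 for all tested genes. That scaling called 16 of the list higher and 0 lower, against 36.5% and 5.96% of all tested genes. Ephx1, microsomal epoxide hydrolase, had 64.5, 57.2 and 64.8 scaled RPKM in OSKM-CMs and 10.0 and 7.16 in Control-CMs. It was 7.25-fold higher in OSKM-CMs (log2 fold change 2.74, limma adjusted p = 6.44e-05), and every library of OSKM-CMs exceeded both controls. Pgd, an NADPH-forming enzyme of the pentose phosphate path, was 3.12-fold higher (limma adjusted p = 0.00213). Nqo2, a quinone reductase, fell by 0.87 (limma adjusted p = 0.00868) and ferritin heavy chain Fth1 by 0.72 (adjusted p = 0.00682), and neither passed with library totals alone. Nqo2 was also lost without Control-CMs replicate 3 (0.0506). The list had 7 calls without OSKM-CMs replicate 1 or 3 and 6 without Control-CMs replicate 5.

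The list for clearing aldehydes and glyoxals, which also holds epoxide hydrolase genes, among them Ephx1, was divided. In it 6 of 21 rose, 7 fell and 8 did not pass, while library totals alone gave 8 higher and 4 lower. Over all tested genes 15.9% were called higher and 14.3% lower, or 36.5% and 5.96% with library totals alone. Besides Ephx1, Aldh1b1, a mitochondrial aldehyde dehydrogenase, rose 3.82-fold, to 26.3 to 28.6 scaled RPKM in OSKM-CMs, against 7.98 and 6.36 in Control-CMs (limma adjusted p = 0.00019). Aldh6a1 and Aldh4a1, which act in valine and proline breakdown, fell by 1.25 each (limma adjusted p = 0.000511 and 0.00186). This list had 7 calls without OSKM-CMs replicate 1 and 8 without OSKM-CMs replicate 3, Control-CMs replicate 3 or Control-CMs replicate 5. In the tyrosine breakdown list, which holds Gstz1, 1 of 6 rose, 1 fell and 4 did not pass, while library totals alone gave 2 higher and 0 lower. Mif, a tautomerase and cytokine, was 3.12-fold higher in OSKM-CMs (limma adjusted p = 0.000273). Fah, which follows Gstz1 in the pathway, had 4.98 to 7.34 scaled RPKM in OSKM-CMs and 8.47 and 9.79 in Control-CMs (limma adjusted p = 0.0494), and missed the threshold when any library other than OSKM-CMs replicate 3 was left out (0.0899 to 0.192). With library totals alone Fah was at -0.22 (limma adjusted p = 0.383), and its RPKM without TMM overlapped between the groups. The tyrosine list had 1 call without OSKM-CMs replicate 1 or replicate 2. Other phase I and phase II enzymes had 6 of 17 higher, 4 lower and 7 that did not pass, and with library totals alone 7 higher and 3 lower. Maoa, monoamine oxidase A, was 9.01-fold higher and the epoxygenase gene Cyp2j6 4.82-fold higher in OSKM-CMs (limma adjusted p = 0.00034 and 0.00039). Ces1d, a carboxylesterase, had 0.690, 5.04 and 0.693 scaled RPKM in OSKM-CMs and 98.4 and 102.3 in Control-CMs. It fell by 5.29 on the log2 scale and the flavin monooxygenase gene Fmo1 by 1.07 (limma adjusted p = 0.00362 and 0.0142). Without Control-CMs replicate 3 the enzyme list had 6 calls, and Fmo1 was not among them (0.0766).

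**Figure D4:**
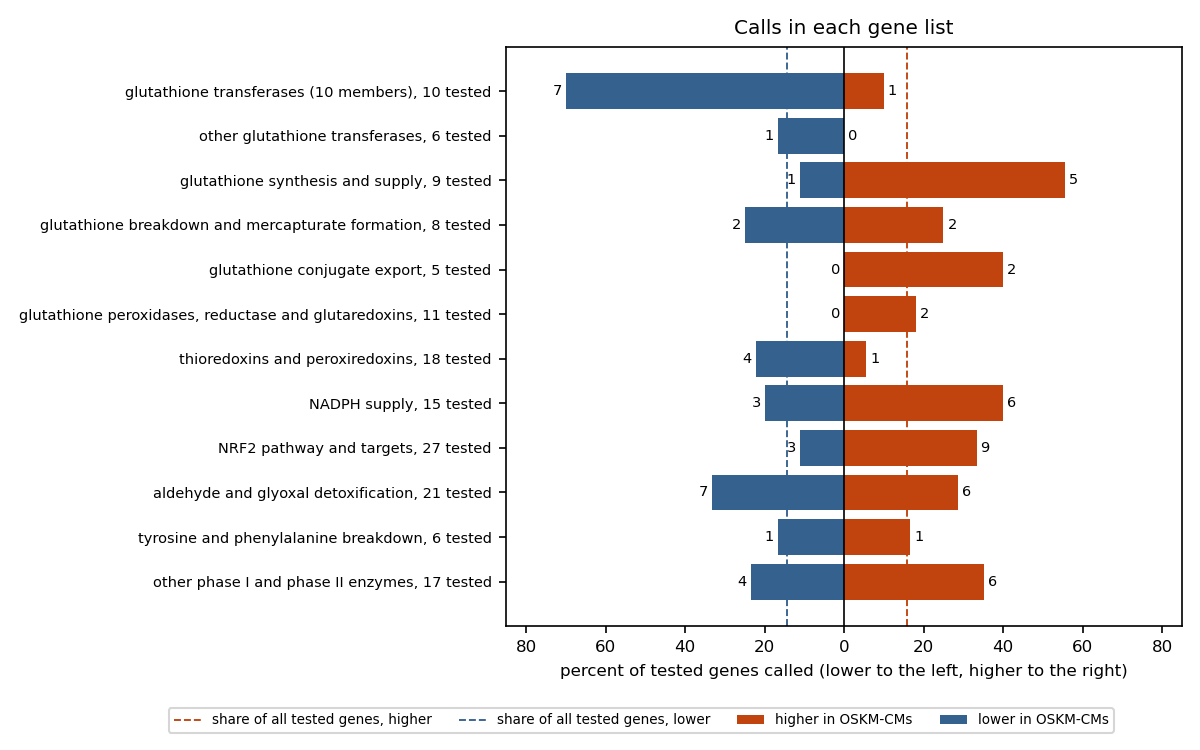
Share of tested genes in each list that was called higher (right) or lower (left) in OSKM-CMs (horizontal axis, percent of tested genes, limma adjusted p below 0.05), with the number called beside each bar. Dashed lines give the shares over all tested genes, 15.9% higher and 14.3% lower. The transferases have the longest bar to the left, with 7 of 10 lower. All lists were chosen with earlier results of these data known.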

How the data were processed

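Tools named, without their order, are STAR 2.5.3, HTSeq, Trimmomatic, CASAVA 1.8.2 and FastQC, with build mm9, per the submitters' processing notes. Annotation and strand setting are not given in the sources used here. The deposited values per library were taken as RPKM, a unit inferred from the values and not told apart from a fragment-based one. Their deposited comparison holds per gene a log2 fold change, an average log2 abundance, a likelihood-ratio score, and a p-value and FDR. Each of the 12446 listed genes reached 1 CPM in 2 or more libraries.

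RPKM steps gave whole reads for 100% of genes (within 0.0001), and summed reads met the library totals within 11 reads. A common factor was settled from the average abundance for 440 genes, none of them members. RPKM were divided by TMM factors computed from these reads (30% of log ratios and 5% of abundances trimmed), genes below a mean RPKM of 1 were dropped, and limma 3.58.1 under R 4.3.3 (abundance trend, robust, 2-sided) was run on log2(scaled RPKM + 1), with Benjamini-Hochberg adjustment over 10915 genes. The added 1 understates changes of low genes. Recovery and test were tested on simulated data. A library's floor (3 reads) was 0.777 to 1.11 CPM, for counting error only.

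The members and gene lists were chosen with earlier results of these data known. Named genes were all members, all tested further transferases, the 2 largest called changes per direction in each other list, and the 3 genes nearest to Gsto1. Shared 50-base stretches and exon overlaps came from GENCODE M21 transcripts (GRCm38), promoters from RefSeq GRCm38.p6. Neither build is that of the files, so coordinates are given only for promoter windows. Alternatives changed the number added before logs (0.1, 5), the scaling, the filter, the model and the libraries used.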

Additional observations from a re-analysis of the deposited data

How the results depend on the processing

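No paired analysis was possible because only number 3 occurs in both groups. Gsto1, Gstm1, Gstm2, Gstm7 and Gstk1 kept their direction and call under all 14 alternatives, and Gstt1 under the 13 that tested it (a mean RPKM of at least 5 removed it). With library totals alone 2 members were higher (3985 genes higher and 650 lower over the table), Gstm5 was at 0.44, Gsta4 and Gstp1 at -0.18 each, Gstz1 at 0.0082, Gstm4 at 0.19 and Mgst3 at 0.027. Calls then numbered 0 among further transferases, 2 in breakdown, 4 in export, 6 in peroxidases and 11 in thioredoxins. Totals without mitochondrial genes, chosen after the data were seen, gave Gsta4 and Gstp1 -0.40 each, Gstm4 0.029, 1025 lower genes over the table, 0 calls among further transferases, 4 in peroxidases and 1 in tyrosine breakdown. Tyrosine breakdown also had 1 call with 0.1 added, with no filter, with limma voom and with neither trend nor robust fit, which left 0 further transferases called. The cause was not tested.

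Leaving out 1 library at a time gave 1 member higher throughout, 5 to 7 members lower, 1153 to 1575 genes higher and 957 to 1492 lower over the table. Log2 fold changes ranged from -0.043 to 0.12 for Gstm5, from -0.67 to -0.48 for Gsta4, from -0.75 to -0.44 for Gstp1, from -0.67 to -0.11 for Gstz1 and from -0.53 to 0.28 for Gstm4. Calls ranged from 0 to 2 for further transferases, 2 to 7 for synthesis, 0 to 4 for breakdown, 0 to 2 for export, 2 to 4 for thioredoxins, 6 to 14 for NRF2, 7 to 14 for aldehydes, 1 to 2 for tyrosine breakdown and 6 to 10 for phase I and II enzymes. Reads per member and library ranged from 5 (Gstt1) to 1767 (Gsto1), and with 5 libraries the spread within a group rests on 3 residual degrees of freedom beside what limma borrows from other genes.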
